A study of Mus musculus with 30 samples.

Results

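The genes followed here encode the cytokine subunits through which dendritic cells instruct T cells and other leukocytes: Il6, Tnf, Il12a, Il12b, Il23a, Il10, Il27, Ebi3, Tgfb1 and Osm. They were taken by Ensembl identifier from a table of read counts, which held all 10 among its 43629 genes. RNA was measured in bone marrow-derived dendritic cells (BMDCs), which are grown from mouse bone marrow with the growth factor GM-CSF, from 5 WT and 5 Cacnb3-/- cultures. Each culture gave 3 libraries named ctrl, 0p5h and 24h, so that 30 libraries fall into 6 groups of 5. Cacnb3 encodes an auxiliary subunit of voltage-gated calcium channels, and the comparisons ask how the cytokine genes moved after extracellular ATP, a signal of tissue damage, with and without it.

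The WT mice were C57BL/6J and the Cacnb3-/- mice were on C57BL/6N, so the deletion and the substrain cannot be told apart. Mice of both sexes were used, marrow came from adults 6 to 12 weeks old, and the cells of all groups were cultured for 6 days. Per the labels, ATP was given at 500 µM for 30 min, followed by harvest at once or after 24 h, whereas the publication's text and figure legend place the earlier harvest after an interval following the pulse. The library names and the treatment field of the labels disagree for 2 of the sets: libraries named ctrl carry 30min_ATP and libraries named 0p5h carry vehicle, whereas both place the 24h set at 24 h after ATP. Sets are therefore called by the library names throughout, and every direction between ctrl and 0p5h turns around if the treatment field is the right one. In that case 0p5h is the vehicle set and ctrl the set after 30 min of ATP, also where each is compared with 24h. The labels do not say whether a culture is 1 animal. Cacnb3 itself was counted in every library, at 1050 to 2170 CPM (reads scaled to library size) in WT and 547 to 1330 CPM in libraries labelled Cacnb3-/-. A count over the whole gene cannot show which part of the transcript is missing, so the genotype rests on the labels.

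Depth ranged from 8237393 to 32164225 counted reads per library, with a median of 19556920. In every library 7 dendritic cell markers, among them Itgax and the class II genes H2-Aa and H2-Ab1, summed to 6610 to 16700 CPM. Most of this sum came from H2-Aa and H2-Ab1 (medians 7410 and 3850 CPM). Itgax, Zbtb46, Flt3 and Ciita had medians of 204, 122, 76.8 and 73.5 CPM, and Cd209a lay at or near 0 (at most 0.62 CPM). Summed markers of T, B, NK and plasmacytoid dendritic cells did not exceed 3.77 CPM in any library, those of mast cells or basophils 57.9 CPM, and those of granulocytes lay between 131 and 693 CPM.

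Cytokines of this group act in families that share parts. The IL-6 family, to which IL-6 and oncostatin M (Osm) belong, signals through receptors built around the common chain gp130. The IL-12 family is made of 2-part molecules: the subunit encoded by Il12b pairs with that of Il12a to give IL-12, which drives interferon-γ-producing T cells, or with that of Il23a to give IL-23, which sustains IL-17-producing T cells. Ebi3 pairs with Il27 to give IL-27. Tumor necrosis factor (Tnf) activates endothelium and dendritic cells themselves, and Il10 and Tgfb1 encode cytokines that restrain immune responses. Genes such as Il6, Tnf and Il12b are classical targets of NF-κB and AP-1 factors in activated dendritic cells.

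Promoter sequences are shown for 3 genes that moved between library sets, Il6 and Il12b in one direction and Tnf in the other. RefSeq's promoter table (GRCm38.p6) held entries for 6 of the 10 genes, Il6, Tnf, Il12a, Il12b, Ebi3 and Tgfb1. The 250 bases before the annotated start are printed 5′ to 3′ on the gene's strand, with matches to any of the motifs searched in capitals.
Il6, chr5:30012864-30013113, forward strand: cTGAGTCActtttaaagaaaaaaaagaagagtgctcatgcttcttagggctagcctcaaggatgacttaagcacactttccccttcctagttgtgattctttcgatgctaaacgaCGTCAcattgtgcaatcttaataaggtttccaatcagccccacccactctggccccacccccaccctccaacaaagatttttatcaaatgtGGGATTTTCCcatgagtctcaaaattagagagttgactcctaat
Tnf, chr17:35202008-35202257, reverse strand: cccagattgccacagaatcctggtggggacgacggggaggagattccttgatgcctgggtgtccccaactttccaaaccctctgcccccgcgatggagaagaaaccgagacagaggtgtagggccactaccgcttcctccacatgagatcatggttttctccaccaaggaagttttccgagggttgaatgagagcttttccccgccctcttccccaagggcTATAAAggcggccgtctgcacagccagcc
Il12b, chr11:44399813-44400062, forward strand: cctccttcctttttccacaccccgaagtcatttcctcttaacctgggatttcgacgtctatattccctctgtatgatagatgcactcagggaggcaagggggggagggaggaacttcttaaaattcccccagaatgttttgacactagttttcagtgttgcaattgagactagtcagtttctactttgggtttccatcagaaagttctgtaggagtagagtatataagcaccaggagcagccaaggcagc
In Il6 the capitals mark a match to the AP-1 motif TGANTCA 249 to 243 bases before the start, one to the CRE half-site TGACG 135 to 131 bases before it, and one to the kappa B motif (GGGNN followed directly by TTTCC) 44 to 35 bases before it. In Tnf they mark the TATA box letters TATAAA, 29 to 24 bases before the start, and in Il12b no searched motif matched. Both strands were searched, also for the full CRE TGACGTCA, which contains the half-site, the STAT motif TTCNNNGAA, the Egr motif GCGNGGGCG and the SRF CArG box. Tgfb1 held 1 Egr match, and Il12a and Ebi3 held none. Among all 32536 different promoters of the table, 6.73% held the AP-1 motif, 17.9% the CRE half-site, 1.4% the kappa B motif, 12.3% the TATA letters, 1.56% the full CRE, 7.04% the STAT motif, 4.74% the Egr motif and 1.48% the CArG box. A match describes letters in this window and not binding.

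Per kilobase of exon, the 10 genes spanned more than 3 orders of magnitude. Il12b was the highest on average over the 30 libraries, at 123 RPKM (CPM divided by the exon length in kilobases), followed by Tgfb1 at 71.2, Ebi3 at 56.3, Osm at 43.5, Il6 at 33.5 and Tnf at 10.9 RPKM. Il10 followed at 1.18 RPKM, and Il27 at 0.355, Il23a at 0.238 and Il12a at 0.0801 RPKM closed the order. The ranges of neighbours in this order overlapped in every case. Within single libraries Il12b exceeded Tgfb1 in 20 of 30 and Osm exceeded Il6 in 19 of 30, whereas Tnf exceeded Il10 in 29 of 30. The genes also differed in how far they varied: from the lowest to the highest library Il6 spanned 76.6-fold and Il12b 47.7-fold, but Tgfb1 only 4.29-fold and Ebi3 4.19-fold.

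**Figure D1:**
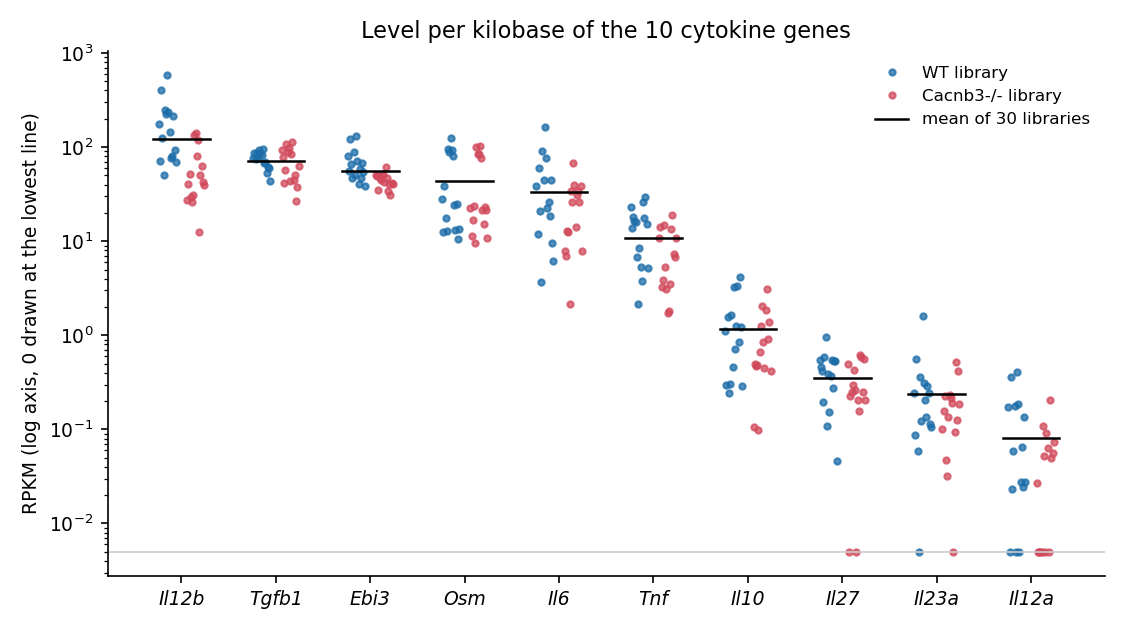
Level of the 10 cytokine genes per kilobase of exon (RPKM, log axis), 1 point per library, WT in blue and Cacnb3-/- in red, with the mean of 30 libraries as a black line. Il12b is highest on average at 123 RPKM, and Il27, Il23a and Il12a lie below 1 RPKM on average, with libraries at 0 drawn on the grey line.

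The partner genes of Il12b and Ebi3 lay close to the detection limit. Il12a, the partner of Il12b in IL-12 (ENSMUSG00000027776, chromosome 3: 68690644 to 68698547, GRCm38, forward strand), had 0 reads in 9 of 30 libraries and at most 21 reads, and a count of 0 in those libraries allows up to 0.118 to 0.364 CPM (3 reads, counting error only). Il23a, its partner in IL-23 (ENSMUSG00000025383, chromosome 10: 128296140 to 128298084, GRCm38, reverse strand), had 0 to 66 reads, with the highest level in WT culture p974s855 in 0p5h (2.19 CPM). Il27, the partner of Ebi3 (ENSMUSG00000044701, chromosome 7: 126589010 to 126594941, GRCm38, reverse strand), had 0 to 16 reads. Il23a and Il27 were each at 0 in 2 of 30 libraries. Of the 3 genes, Il12a passed the filter on low counts in none of the comparisons, Il23a only with the libraries of a culture summed, and Il27 there and in 3 comparisons that involve the 24h set. Where tested, neither reached an unadjusted p under 0.05 in edgeR. DESeq2, run without that filter, called none of the 3 genes, but where it gave no adjusted p, no call was possible. This held for Il12a within Cacnb3-/- BMDCs and between genotypes, and for Il23a in part of these comparisons. The lowest unadjusted p in DESeq2 was 0.0109 for Il12a (adjusted p = 1) and 0.0194 for Il23a (adjusted p = 0.992), both for a genotype difference in change. The other 7 genes passed in every comparison.

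Genes were compared with edgeR's quasi-likelihood test. A call needed an adjusted p (Benjamini-Hochberg, all genes tested) under 0.05 together with at least a 2-fold change, and adjusted p-values in the text are from this test unless another is named. Libraries of a culture deviated together, so a second fit that takes the culture as a replicate block is given where it changes a call. The exceptions are comparisons of ctrl with 24h that include Cacnb3-/- cultures, because 1 culture's libraries did not deviate together there, and their blocked values stand with the processing alternatives. From ctrl to 0p5h, 1 of 7 cytokine genes tested was called in WT and 1 of 7 in Cacnb3-/- BMDCs, Osm in both cases, against 0.176% and 0.29% of all genes. With the replicate block 5 of 7 were called in each genotype, Osm, Il6, Il12b and Il10 higher and Tnf lower, against 0.581% and 0.643% of all genes. The median log2 fold change of the 7 genes was 0.81 in WT and 1.51 in Cacnb3-/- BMDCs, against 0.01 and -0.01 over all genes tested. In RNA of a whole culture, more cells of one kind and more RNA per cell cannot be told apart.

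Oncostatin M, an IL-6 family cytokine made by myeloid cells, was the gene called between ctrl and 0p5h in both genotypes (Osm, ENSMUSG00000058755, chromosome 11: 4236420 to 4241026, GRCm38, forward strand). In WT the libraries named ctrl held 64, 28.3, 88.6, 40.4 and 28.9 CPM of Osm and those named 0p5h 216, 201, 285, 213 and 183 CPM (cultures in the order p974s846, p974s850, p974s855, p974s856 and p974s864 here and below). In Cacnb3-/- BMDCs the same sets held 50.7, 26, 38.3, 53.5 and 21.5 CPM and 230, 191, 190, 233 and 176 CPM (order p974s843, p974s851, p974s852, p974s853 and p974s865). Every 0p5h library lay above every ctrl library in both genotypes, and within cultures the ratio was 3.22 to 7.09 in WT and 4.36 to 8.17 in Cacnb3-/-. For how many of all genes the ranges of library sets did not overlap was not counted, here and for the genes below. As log2 fold change, Osm in WT rose by 2.14 (standard error 0.31, adjusted p = 0.0194) and in Cacnb3-/- BMDCs by 2.42 (standard error 0.25, adjusted p = 0.0011). The call in WT was lost without culture p974s846, p974s850, p974s856 or p974s864 (adjusted p = 0.134, 0.161, 0.222 and 0.064), at log2 fold changes of 2.25, 2.01, 2.07 and 2.06. In 24h Osm lay near its ctrl level, with 54.5, 29.8, 56.3, 24 and 30.4 CPM for WT cultures and 48.3, 34.5, 52.7, 49.3 and 24.6 CPM for Cacnb3-/- cultures, in ranges that overlapped those of ctrl. Osm fell by 2.49 in WT (standard error 0.24, adjusted p = 0.000409) and fell by 2.25 in Cacnb3-/- BMDCs (standard error 0.22, adjusted p = 0.000448) between 0p5h and 24h. The change from ctrl to 0p5h differed between genotypes by 0.29 (95% interval -0.50 to 1.07, adjusted p = 1).

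**Figure D2:**
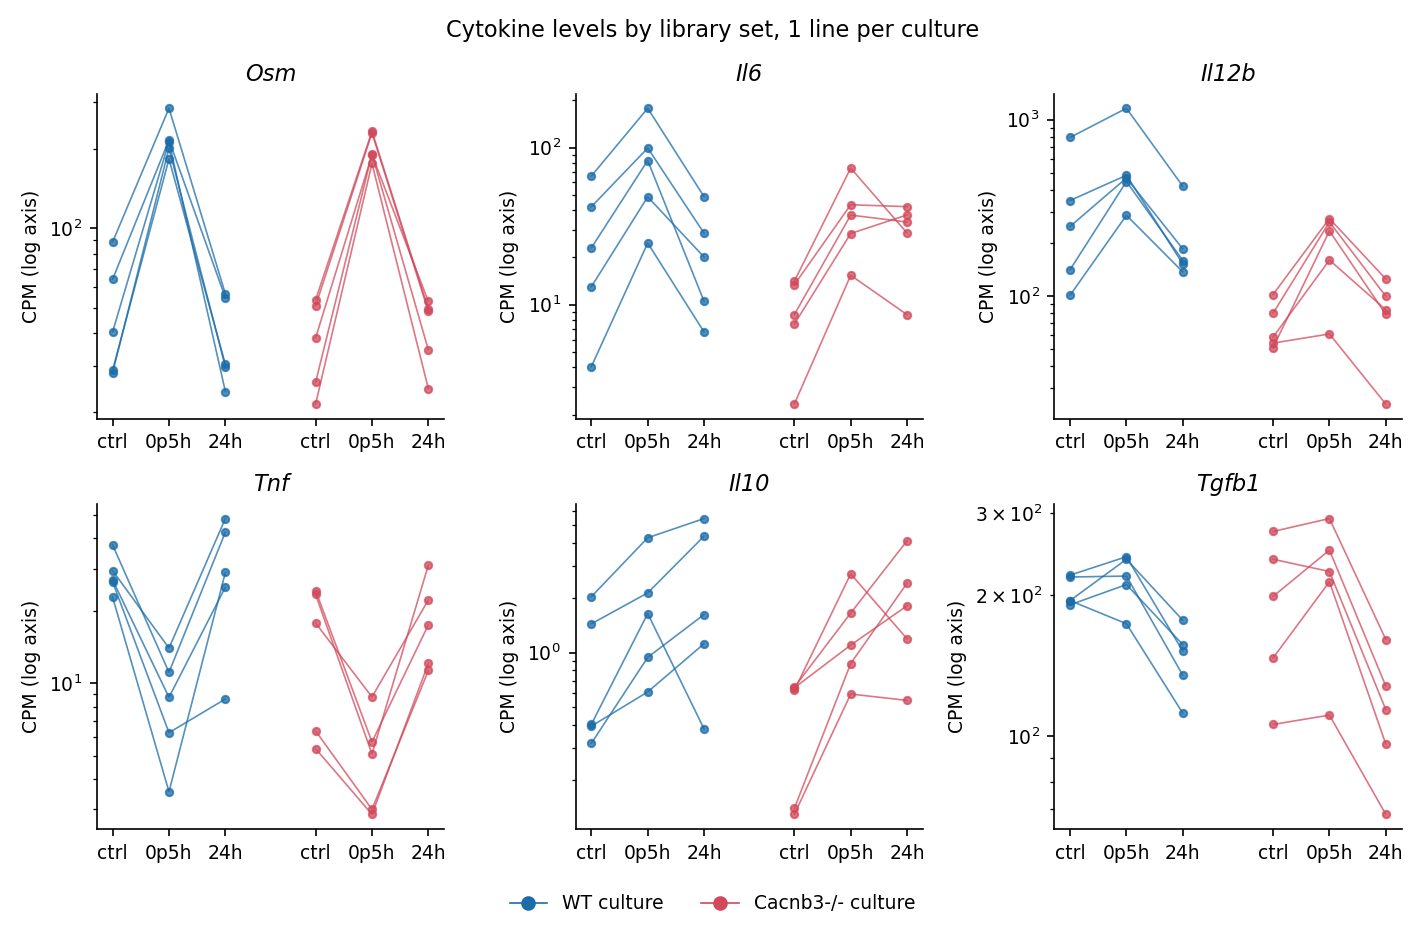
CPM (log axis) of Osm, Il6, Il12b, Tnf, Il10 and Tgfb1 by library set, from ctrl over 0p5h to 24h, 1 line per culture, WT in blue and Cacnb3-/- in red. Osm is higher and Tnf lower in 0p5h than in ctrl in each of the 10 cultures, and Il6 at 24h lies between 6.7 and 48.7 CPM in WT and between 8.64 and 42.1 CPM in Cacnb3-/- cultures.

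Il6, which encodes the name-giving cytokine of the same family (ENSMUSG00000025746, chromosome 5: 30013161 to 30019968, GRCm38, forward strand), was higher in 0p5h than in ctrl in every culture, but from starting levels that differed widely. WT cultures held 42, 13, 65.9, 23 and 4.03 CPM in ctrl, 99.4, 48.6, 178, 82.8 and 24.7 CPM in 0p5h and 28.5, 20.1, 48.7, 10.5 and 6.7 CPM in 24h. Cacnb3-/- cultures held 8.65, 7.53, 14.1, 13.4 and 2.33 CPM in ctrl, 37.2, 28.4, 74.1, 43.3 and 15.4 CPM in 0p5h and 33.6, 37.3, 28.6, 42.1 and 8.64 CPM in 24h. The ctrl and 0p5h ranges overlapped in WT and not in Cacnb3-/- cultures, while the ratio within cultures was 2.36 to 6.13 and 3.22 to 6.64. Between these sets the log2 fold change of Il6 was 1.56 in WT (standard error 0.68, adjusted p = 1) and 2.11 in Cacnb3-/- BMDCs (standard error 0.49, adjusted p = 0.189). With the replicate block Il6 rose by 1.71 in WT (adjusted p = 3.5e-05) and in Cacnb3-/- BMDCs by 2.13 (adjusted p = 3.75e-05). Without the block and with all cultures, DESeq2 called the change in Cacnb3-/- BMDCs (2.12, adjusted p = 0.000858) and not in WT (adjusted p = 0.961). EdgeR with no filter on low counts also called it in Cacnb3-/- BMDCs (2.12, adjusted p = 0.03). Without culture p974s865, the lowest in Il6, the unblocked edgeR test called it there too (adjusted p = 0.0261).

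From 0p5h to 24h Il6 was lower in 5 of 5 WT and 4 of 5 Cacnb3-/- cultures. The log2 fold change in WT was -1.91 (standard error 0.58, adjusted p = 0.198), which was called with the replicate block (-1.93, adjusted p = 0.00053). In Cacnb3-/- BMDCs it was -0.37 (standard error 0.44, adjusted p = 0.645, with the block 0.221), and without culture p974s852 it was 0.01. From ctrl to 24h Il6 in Cacnb3-/- BMDCs changed by 1.74 as log2 (standard error 0.48, adjusted p = 0.444), in ranges that overlapped (2.33 to 14.1 and 8.64 to 42.1 CPM). By culture number, which is not taken as a pairing there, each 24h library lay above its ctrl library. DESeq2 called this change (adjusted p = 0.0404), as did edgeR without culture p974s865 (adjusted p = 0.0434). The genotype difference in the change from 0p5h to 24h was 1.54 (standard error 0.77, unadjusted p = 0.0584 in edgeR, adjusted p = 0.68, with the block 0.108). DESeq2 with the block, a setting added after the data had been examined, called this difference among 41 genes (1.58, adjusted p = 0.0177). From ctrl to 24h it was 2.10 (standard error 0.88, unadjusted p = 0.0266 in edgeR, adjusted p = 0.753). No cytokine gene was called for any of the 3 genotype differences in change by edgeR without the block, against 0%, 0% and 0% of all genes. At an unadjusted p under 0.05 stood 0 of 7, 1 of 8 and 0 of 8 of them, against 0.223%, 4.86% and 5.88% of all genes, and DESeq2 and limma-voom called 0. With the block, edgeR called 0 of 7 for ctrl to 0p5h and 0 of 8 for 0p5h to 24h, against 0% and 0.00745% of all genes.

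In the IL-12 family, Il12b (ENSMUSG00000004296, chromosome 11: 44400063 to 44414033, GRCm38, forward strand) was highest in 0p5h in all 10 cultures. WT cultures held 348, 141, 793, 248 and 101 CPM in ctrl, 484, 446, 1160, 467 and 287 CPM in 0p5h and 152, 159, 419, 185 and 137 CPM in 24h. Cacnb3-/- cultures held 54.1, 79.9, 102, 58.5 and 51 CPM in ctrl, 61, 263, 275, 160 and 234 CPM in 0p5h and 24.4, 99.7, 125, 83.6 and 78.7 CPM in 24h. The ranges of the sets overlapped, with WT culture p974s855 the highest in each set and Cacnb3-/- culture p974s843 the lowest of all in 0p5h and 24h. The change from ctrl to 0p5h was 0.81 in WT (standard error 0.55, adjusted p = 1) and 1.51 in Cacnb3-/- BMDCs (standard error 0.36, adjusted p = 0.208), and with the block Il12b rose by 1.02 (adjusted p = 0.00327) and 1.40 (adjusted p = 0.01). Without the block DESeq2 called this change of Il12b in Cacnb3-/- BMDCs (1.53, adjusted p = 0.00401) and not in WT. Its change from 0p5h to 24h was -1.43 (adjusted p = 0.154) and -1.25 (adjusted p = 0.203), and with the block Il12b fell by 1.40 (adjusted p = 6.12e-05) and fell by 1.25 (adjusted p = 3.92e-05). Without the block, edgeR called this change when WT culture p974s855 (adjusted p = 0.0107) or Cacnb3-/- culture p974s843 (adjusted p = 0.0451) was left out. With all cultures, DESeq2 without the block called it in WT (-1.43, adjusted p = 0.0121). EdgeR with the sequencing lane as a covariate did so too (-1.41, adjusted p = 0.000289). Neither called it in Cacnb3-/- BMDCs (adjusted p = 0.0637 and 0.306).

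Ebi3, which encodes the shared subunit of IL-27 (ENSMUSG00000003206, chromosome 17: 55952623 to 55957021, GRCm38, forward strand), moved by less than 2-fold between all sets. Its mean was 86.7 ± 33.6, 89.4 ± 41.7 and 62.3 ± 13.2 CPM for WT and 53 ± 7.29, 59.4 ± 8.3 and 44.4 ± 5.62 CPM for Cacnb3-/- cultures in ctrl, 0p5h and 24h (SD, n = 5). Ebi3 was lower at 24h than in 0p5h in all 10 cultures (-0.51 in WT, adjusted p = 0.552, and -0.39 in Cacnb3-/-, adjusted p = 0.182). With the block the adjusted p was 0.0605 and 0.00744.

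Tnf (ENSMUSG00000024401, chromosome 17: 35199381 to 35202007, GRCm38, reverse strand) was lowest in 0p5h in each of the 10 cultures. WT cultures held 37.6, 22.8, 29.4, 26.9 and 26.4 CPM in ctrl, 11.1, 3.54, 14, 8.74 and 6.23 CPM in 0p5h and 42.5, 28.9, 48.4, 25.1 and 8.6 CPM in 24h. Cacnb3-/- cultures held 17.8, 23.4, 5.35, 6.34 and 24.3 CPM in ctrl, 8.77, 5.08, 2.85, 2.99 and 5.7 CPM in 0p5h and 22.2, 31, 12.1, 11.3 and 17.5 CPM in 24h. The ctrl and 0p5h ranges did not overlap in WT and overlapped in Cacnb3-/- cultures, 2 of which held under 7 CPM already in ctrl. The change from ctrl to 0p5h was -1.70 in WT (standard error 0.31, adjusted p = 0.0571) and -1.60 in Cacnb3-/- BMDCs (standard error 0.45, adjusted p = 0.457). With the block Tnf fell by 1.74 (adjusted p = 0.000131) and fell by 1.54 (adjusted p = 0.00387), and DESeq2 called both without it (adjusted p = 1.94e-05 and 0.0437). From 0p5h to 24h Tnf was higher by 1.82 in WT (adjusted p = 0.0858, with the block 0.00419, called) and rose by 1.92 in Cacnb3-/- BMDCs (standard error 0.36, adjusted p = 0.0296). Without the block, the call in Cacnb3-/- BMDCs was lost without culture p974s851, p974s852, p974s853 or p974s865 (adjusted p = 0.227, 0.057, 0.0888 and 0.0674) and with the sequencing lane as a covariate (1.84, adjusted p = 0.0554), and WT was called without culture p974s864 (adjusted p = 0.0425). With all cultures, the change in WT was called by DESeq2 without the block (1.82, adjusted p = 0.00172). The lane covariate gave a call in WT too (1.84, adjusted p = 0.00801).

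Of the genes for restraining cytokines, Il10 (ENSMUSG00000016529, chromosome 1: 131019845 to 131024974, GRCm38, forward strand) was scarce, and higher in 0p5h than in ctrl in all 10 cultures. Its mean was 0.917 ± 0.776, 1.92 ± 1.45 and 2.59 ± 2.2 CPM for WT and 0.435 ± 0.275, 1.38 ± 0.835 and 2.01 ± 1.37 CPM for Cacnb3-/- cultures in ctrl, 0p5h and 24h (SD, n = 5), from 3 to 132 reads per library. The change from ctrl to 0p5h did not pass the test (1.07 in WT, adjusted p = 1, and 1.73 in Cacnb3-/-, adjusted p = 0.659), and the block called a rise in both (1.08, adjusted p = 0.0122, and 1.66, adjusted p = 0.0183). By culture number, which is not taken as a pairing of ctrl with 24h in Cacnb3-/- cultures, Il10 at 24h was above ctrl in 9 of 10 cultures. The change from ctrl to 24h was 1.5 in WT (adjusted p = 0.597, with the block 0.0121, called) and 2.30 in Cacnb3-/- BMDCs (adjusted p = 0.444), where DESeq2 called it (adjusted p = 0.0443).

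Tgfb1, whose product is made as a latent precursor (ENSMUSG00000002603, chromosome 7: 25687002 to 25705077, GRCm38, forward strand), was lower at 24h than in 0p5h in all 10 cultures. Its mean was 204 ± 14.4, 217 ± 27.4 and 146 ± 24.4 CPM for WT and 193 ± 67.9, 219 ± 67.2 and 113 ± 34.8 CPM for Cacnb3-/- cultures (SD, n = 5). From 0p5h to 24h the change was -0.57 in WT (standard error 0.14, adjusted p = 0.082) and -0.92 in Cacnb3-/- BMDCs (standard error 0.26, adjusted p = 0.129). The block put both below 0.05 (adjusted p = 0.00176 and 8.94e-05), at less than 2-fold.

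**Figure D3:**
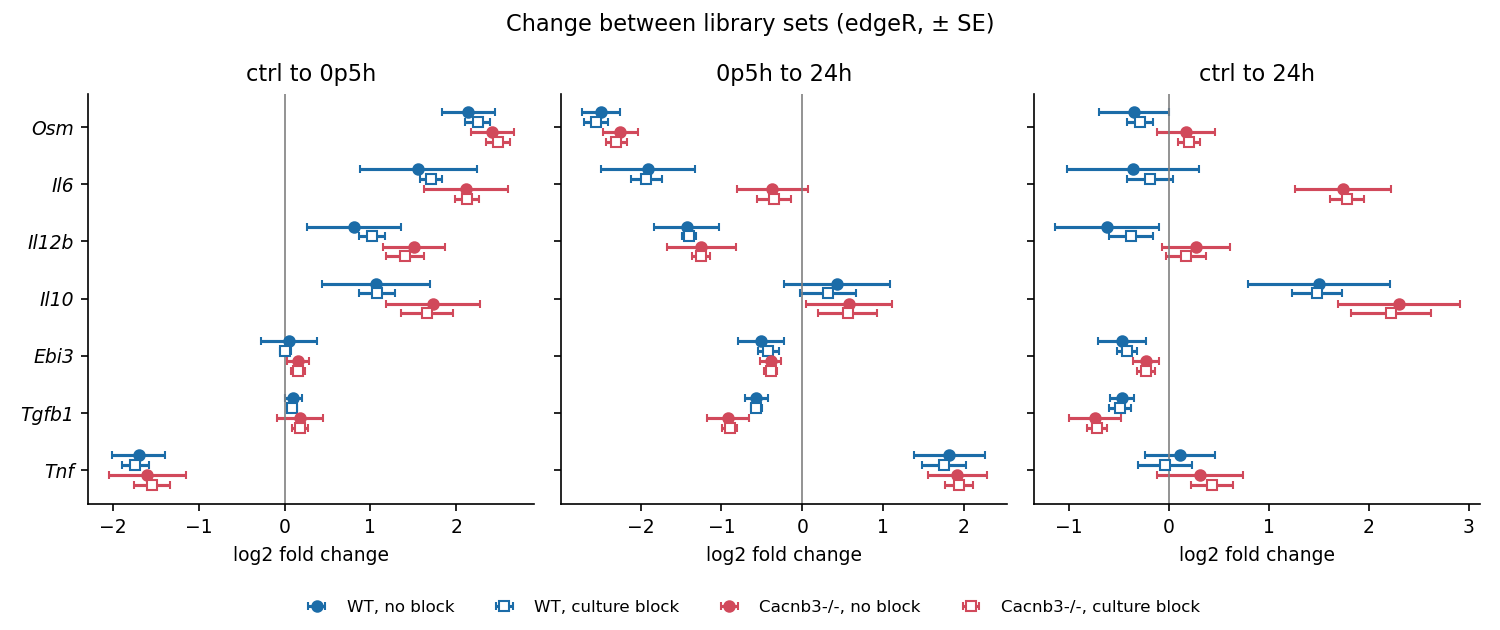
Log2 fold change between library sets (edgeR, bars ± 1 standard error) of the 7 cytokine genes that passed the filter in every comparison, filled circles without and open squares with the culture number as a block, WT in blue and Cacnb3-/- in red. Osm is at 2.14 and 2.42 from ctrl to 0p5h and at -2.49 and -2.25 from 0p5h to 24h, Tnf moves in the opposite directions, and Il6 from ctrl to 24h is at -0.36 in WT and 1.74 in Cacnb3-/- BMDCs. Open squares for Cacnb3-/- BMDCs from ctrl to 24h are drawn although the culture number is not taken as a pairing there.

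Counted over the remaining comparisons of sets, edgeR called 1 of 7 cytokine genes from 0p5h to 24h in WT (Osm) and 2 of 7 in Cacnb3-/- BMDCs (Osm and Tnf), against 0.639% and 0.66% of all genes. With the block 4 of 7 were called in WT (Osm, Il6, Il12b and Tnf) and 3 of 7 in Cacnb3-/- BMDCs (Osm, Il12b and Tnf), against 1.78% and 2.88%. The median log2 fold change of the 7 genes was -0.57 and -0.39, against 0.01 and 0 over all genes. From ctrl to 24h edgeR called 0 of 8 in WT and 0 of 7 in Cacnb3-/- BMDCs, against 0.0152% and 0% of all genes. There, 1 of 8 and 3 of 7 had an unadjusted p under 0.05, against 8.39% and 10.8% of all genes. DESeq2 called 0 and 2, against 0.198% and 0.333% of all genes, limma-voom called 0 and 0, and with the block 1 was called in WT (Il10), against 0.926% of all genes.

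Between genotypes, Il12b had the largest difference in each set among the 7 cytokine genes tested in all of them. Its values in libraries labelled Cacnb3-/-, given above, lay below those of WT without overlap in 0p5h and in 24h, and in ctrl only the highest Cacnb3-/- culture (102 CPM) reached the lowest WT culture (101 CPM). Among all genes tested, every Cacnb3-/- library lay below every WT library for 1.04% in ctrl, 1.37% in 0p5h and 3.71% in 24h, and of the 7 cytokine genes tested for 0, 1 and 1. The log2 fold change of Il12b was -2.20 in ctrl (standard error 0.49, adjusted p = 0.243), -1.48 in 0p5h (standard error 0.42, adjusted p = 0.251) and -1.31 in 24h (standard error 0.40, adjusted p = 0.0529). With the libraries of each culture summed it was -1.60 (standard error 0.42, adjusted p = 0.127). The difference did not pass the test with edgeR, whereas DESeq2 called it in ctrl, 0p5h, 24h and with libraries summed (adjusted p = 0.00158, 0.0371, 0.0118 and 0.0108). DESeq2 called 0.719%, 0.326%, 1.7% and 0.818% of all genes lower in Cacnb3-/- BMDCs in the same order.

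Sequencing lanes and single cultures were checked for this difference. The file headers name 3 lanes, with 2 WT cultures on lane 1 alone and 2 Cacnb3-/- cultures on lane 3 alone and both genotypes on each lane. With the lane as a covariate the log2 fold change of Il12b was -2.21, -1.49 and -1.41 in ctrl, 0p5h and 24h (adjusted p = 0.229, 0.271 and 0.0901). Without WT culture p974s855, the highest in Il12b, it was -1.56, -1.06, -0.90 and -1.08 in ctrl, 0p5h, 24h and with libraries summed (adjusted p = 0.535, 0.518, 0.114 and 0.278). Without WT culture p974s864, the lowest WT culture, edgeR called it in ctrl, 24h and with libraries summed (-2.43, -1.42 and -1.77, adjusted p = 0.0194, 0.0406 and 0.0412), and in 24h also without Cacnb3-/- culture p974s865 (-1.27, adjusted p = 0.0451). These omissions moved calls over all genes too, from 0 with all cultures. Without p974s864, 109 genes were called higher and 140 lower of 13277 in ctrl. In 24h the calls were 473 and 260 of 12781, and with libraries summed 211 and 169 of 14972. Without p974s865 they were 593 and 536 of 12785 in 24h.

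Markers of other cell states were set beside these values. The summed level of 6 maturation markers (Ccr7, Fscn1, Cd86, Cd40, Cd83 and Relb, all detected) ranged from 8380 to 12300 CPM in WT and 6620 to 9590 CPM in Cacnb3-/- cultures in ctrl, from 9870 to 13000 and 6620 to 12700 CPM in 0p5h, and from 11600 to 17000 and 5730 to 10200 CPM in 24h. The summed level of 9 macrophage markers, all detected, ranged from 377 to 1670 CPM in WT and 1070 to 2500 CPM in Cacnb3-/- cultures in ctrl, from 445 to 1510 and 872 to 2600 CPM in 0p5h, and from 494 to 1860 and 927 to 1970 CPM in 24h. Of these ranges, only those of the maturation markers in 24h did not overlap between the genotypes, and the part of either list in the Il12b difference was not tested.

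**Figure D4:**
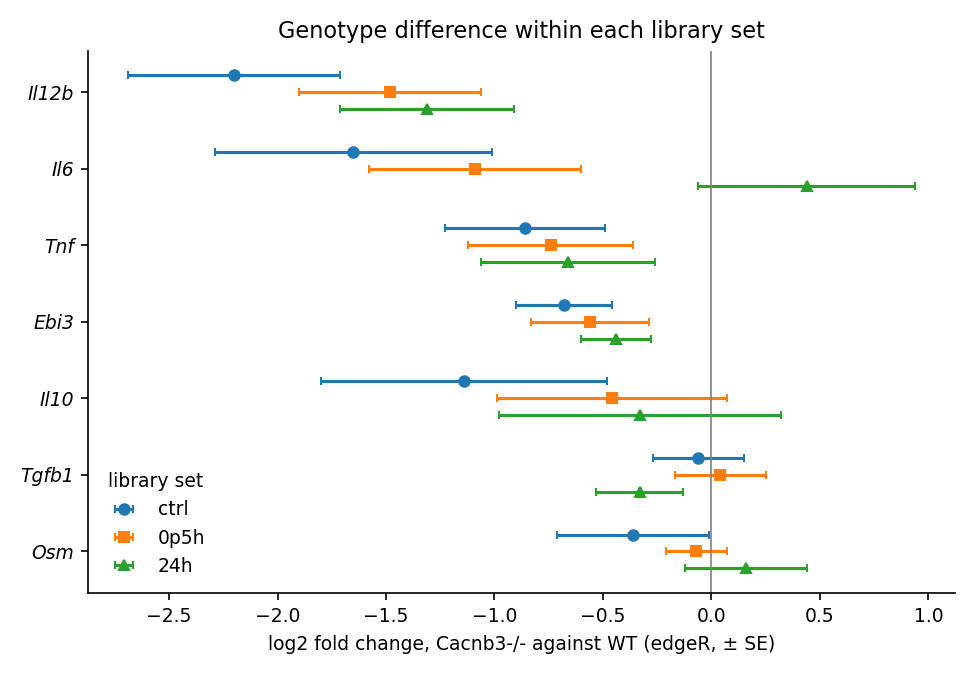
Log2 fold change of Cacnb3-/- against WT (edgeR, bars ± 1 standard error) for the 7 cytokine genes tested in ctrl (circles), 0p5h (squares) and 24h (triangles), 5 cultures per genotype. Il12b is at -2.20, -1.48 and -1.31, Il6 at -1.65, -1.09 and 0.44, and Osm and Tgfb1 lie closest to 0.

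No cytokine gene was called between genotypes by edgeR, out of 7 tested in each set and 9 with libraries summed, against 0%, 0%, 0% and 0% of all genes. At an unadjusted p under 0.05 stood 4 of 7 in ctrl, 2 of 7 in 0p5h, 2 of 7 in 24h and 3 of 9 with libraries summed, against 16.6%, 16.4%, 38.4% and 23.3% of all genes, so that the share in 24h was below that of all genes. DESeq2 called 1 in each (Il12b) and limma-voom 0. The median log2 fold change of the cytokine genes tested was -0.86, -0.56, -0.33 and -0.57 in that order, against 0.03, 0.02, 0.01 and 0.02 over all genes. Il6 was at -1.65 in ctrl (adjusted p = 0.263), -1.09 in 0p5h (adjusted p = 0.301) and 0.44 in 24h (adjusted p = 0.533), where removing a trend with GC content turned its sign (-0.15). Ebi3, below 2-fold throughout, was at -0.68, -0.56 and -0.44 (adjusted p = 0.248, 0.32 and 0.0682), and Tnf at -0.86 in ctrl (adjusted p = 0.284). For Osm the 0p5h means were 220 ± 38.9 CPM for WT and 204 ± 26.2 CPM for Cacnb3-/- cultures (SD, n = 5), closer than the spread between cultures.

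Genes that receive, process, relay or control these cytokines were counted by role. Among 14 receptor genes, including Il6ra, the gp130 gene Il6st, Osmr, Tnfrsf1a and Il10ra, 12 or 13 were tested and none was called in any of the 13 comparisons by edgeR, with 0 to 4 at an unadjusted p under 0.05 in each. Over all genes, 0.223% to 38.4% were at such a p in these comparisons, and 0% to 0.66% were called. With the block, run in 9 comparisons, no receptor gene was called either, with 0 to 7 at an unadjusted p under 0.05. Of all genes, from 312 of 13465 to 5435 of 12730 were at such a p there. DESeq2 called Lifr, a receptor chain for LIF, higher in Cacnb3-/- BMDCs in 24h (1.22, adjusted p = 0.0104), and limma-voom called none. None of 9 transducers of the JAK-STAT and SMAD pathways was called in any comparison by edgeR, DESeq2 or limma-voom, with 0 to 4 at an unadjusted p under 0.05 in edgeR. Among 8 genes that process or activate cytokines, Lrrc32, which holds latent TGF-β on the cell surface, was called higher in 0p5h than in ctrl in WT (1.56, standard error 0.23, adjusted p = 0.0202; from 9.82 ± 1.99 to 28.9 ± 9.31 CPM, SD, n = 5). Between 0p5h and 24h Lrrc32 fell by 2.46 in WT (adjusted p = 0.000375) and fell by 2.70 in Cacnb3-/- BMDCs (adjusted p = 0.03), and the block called its rise in Cacnb3-/- BMDCs too (1.56, adjusted p = 0.000276). Thbs1, which can activate latent TGF-β, fell by 1.39 from 0p5h to 24h in WT (adjusted p = 0.00758), from 3730 ± 861 to 1420 ± 345 CPM, and with the block it fell by 1.09 in Cacnb3-/- BMDCs (adjusted p = 0.00251), where Itgb8, which encodes a chain of a TGF-β-activating integrin, rose by 1.11 (adjusted p = 0.000696). Without the block DESeq2 called the fall of Thbs1 in Cacnb3-/- BMDCs (-1.21, adjusted p = 0.00234).

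Among 14 regulators of cytokine genes, Nfkbiz, which encodes a nuclear IκB protein needed for Il6 and Il12b expression in macrophages, and Nfil3, a repressor of Il12b, were called. From ctrl to 0p5h in Cacnb3-/- BMDCs Nfkbiz rose by 1.41 (adjusted p = 0.0044) and Nfil3 by 1.11 (adjusted p = 0.013), and from 0p5h to 24h Nfkbiz fell by 1.44 (adjusted p = 0.00213) and Nfil3 fell by 1.14 (adjusted p = 0.00103). In WT Nfkbiz fell by 1.39 from 0p5h to 24h (adjusted p = 0.0125), and with the block it rose by 1.14 from ctrl to 0p5h (adjusted p = 3.96e-05). DESeq2 called this rise without the block (1.11, adjusted p = 0.000263). Maf, a factor that acts on Il10, was called with the block in Cacnb3-/- BMDCs, higher in 24h than in 0p5h (1.30, adjusted p = 0.000283). DESeq2 called Maf there without the block (1.32, adjusted p = 0.0326).

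Of 15 other cytokine genes, 7 passed the filter in comparisons of sets, and Il1b and Lif were called in Cacnb3-/- BMDCs. Il1b, whose product is released after ATP opens P2X7 channels, rose by 2.17 from ctrl to 0p5h (standard error 0.34, adjusted p = 0.0176; from 155 ± 43.1 to 702 ± 398 CPM) and fell by 1.68 from 0p5h to 24h (adjusted p = 0.0353). Lif, an IL-6 family member, rose by 1.80 (standard error 0.32, adjusted p = 0.0348; from 13 ± 6.29 to 45.5 ± 10.3 CPM) and fell by 1.35 (adjusted p = 0.00332). In WT edgeR called both with the block only, at 1.46 for Il1b (adjusted p = 1.77e-05) and 1.49 for Lif (adjusted p = 2.35e-05) from ctrl to 0p5h, and at -2.20 (adjusted p = 0.000221) and -1.34 (adjusted p = 0.000103) from 0p5h to 24h. DESeq2 called the latter changes in WT without the block too (-2.10, adjusted p = 0.0272, and -1.39, adjusted p = 0.00267). None of the genes of these lists was called between genotypes by edgeR, against 0% of all genes. Over all 13 comparisons, at most 9 of the 14 regulators and at most 4 genes of each other list had an unadjusted p under 0.05 in edgeR. Between genotypes, such a p was reached by 16.6%, 16.4%, 38.4% and 23.3% of all genes in ctrl, 0p5h, 24h and with libraries summed. Beside Lifr, DESeq2 called Maf higher in Cacnb3-/- BMDCs in 24h and with libraries summed (1.46 and 1.17, adjusted p = 0.00317 and 0.00799) and Il1b lower in ctrl (-1.52, adjusted p = 0.0193), and limma-voom called none.

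Among genes with a mean of at least 1 CPM, those whose levels most resembled each cytokine gene were named by Pearson's r of log2(CPM + 1) over the 30 libraries, which share cultures and sets, so r is a description only. Osm was most like Rasd1, Btg2 and Tnfaip3 (r = 0.961, 0.96 and 0.954), the last an inhibitor of NF-κB signaling, and Il6 was most like Bhlhe40, Dusp14 and Cd274 (0.897, 0.881 and 0.881), the last encoding PD-L1. Il12b was most like Pde4b, 4833439L19Rik and Sema7a (0.904, 0.901 and 0.891), and Tnf most like Gm5431, Irgm2 and Zscan22 (0.834, 0.832 and 0.825). Il10 was most like Zc3hav1, Il15 and Ssbp3 (0.8, 0.795 and 0.768), Ebi3 most like Irgq, Akna and Specc1l (0.943, 0.941 and 0.938), and Tgfb1 most like Gde1, Mboat7 and Rarg (0.949, 0.945 and 0.942). Among the cytokine genes themselves, Il12b and Ebi3 (0.74) and Il6 and Osm (0.73) were the most alike, and Tnf and Osm the most opposed (-0.62).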

How the data were processed

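Polyadenylated RNA of 30 BMDC libraries was sequenced. The deposited table holds whole-number read counts per gene, which the authors made without normalization. Per the file header, reads were counted with featureCounts 1.5.1 on the Ensembl release 79 annotation, with no strand option shown, so overlapping genes on opposite strands cannot be told apart. The submitters' processing notes name STAR 2.4, DESeq2 and mm10, and the study's methods name GRCm39, whereas the table's coordinates are those of GRCm38. The 10 genes and all lists were chosen with earlier results of these data known.

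Counts were tested with edgeR 4.0.16 in R 4.3.3 (TMM scaling, filterByExpr, quasi-likelihood test) on the libraries compared, with Benjamini-Hochberg adjustment over all genes tested. DESeq2 1.42.0, limma-voom (limma 3.58.1), other scalings, no filter, no fold minimum, a GC trend, the sequencing lane and each culture left out were alternatives. CPM used TMM scaling over 30 libraries. Columns not matched to a sample numbered 0, and no 2 libraries were identical. Without the block, p-values measure the spread between cultures, which may be technical. With the block, they measure how far the change within a culture varies from culture to culture. All 10 cytokine genes were named, then at most 5 called genes per list and comparison by size of change, and the 3 genes most like each cytokine gene with a mean of at least 1 CPM.

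The labels give the 3 libraries of a culture the same number. Over 13755 genes, deviations of same-numbered libraries correlated above 0.1 in 29 of 30 pairs (0.317 to 0.846), the exception being Cacnb3-/- culture p974s843 between ctrl and 24h (0.0746). The culture number was therefore taken as pairing libraries except in comparisons of ctrl with 24h that include Cacnb3-/- cultures. Scripts were checked on simulated counts.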

Additional observations from a re-analysis of the deposited data

Results flagged for a closer look

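Among the 60 sets of 5 libraries (10 genes in 6 groups), 4 held a library far from the other 4 by Dixon's test, and chance flags about 1 in 20 sets. WT culture p974s855 stood above the others in Il12b in 0p5h (1160 CPM) and in 24h (419 CPM), and in Il23a in 0p5h (2.19 CPM). Cacnb3-/- culture p974s843 held the only read of Il12a in its group in ctrl (0.0462 CPM, 1 read). The cause was not tested in any of them.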

How the results depend on the processing

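The 10 genes' mean levels moved by less than 1 SD between cultures in 20 of 20 cases under another scaling. Of 729 alternatives for single changes named above, 653 kept their direction and side of the threshold, 9 lost a call, 65 gained one and 2 changed sign, and of 796 alternatives for the changes not named, 41 changed sign, none of them called. DESeq2 with the block and the block with no fold minimum were added after the data had been examined.

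Counts of cytokine genes called in WT and Cacnb3-/- BMDCs moved as follows, and the cause was not tested. From ctrl to 0p5h, 1 and 1 were called by edgeR, and DESeq2 called 2 and 4, edgeR with no filter 2 and 2, with the replicate block 5 and 5, DESeq2 with the block 5 and 5 and edgeR with the block and no fold minimum 5 and 5, while limma-voom and the lane covariate each gave 2 in WT. Between 0p5h and 24h, 1 and 2 were called, and in WT DESeq2 called 3, edgeR with no filter 2, with the block 4, DESeq2 with the block 4, edgeR with the lane covariate 4 and all 30 libraries in one fit 2. With the block and no fold minimum 5 were called in each genotype, and the lane covariate left 1 in Cacnb3-/- BMDCs. From ctrl to 24h, 0 and 0 were called, and in WT the block gave 1 with edgeR and 1 with DESeq2, and 3 with no fold minimum. In Cacnb3-/- BMDCs DESeq2 called 2 and the block gave 2 with edgeR, 2 with DESeq2 and 3 with no fold minimum. There, 1 culture's libraries did not deviate together, so the culture number is not taken as a pairing, and Il10 (2.22, adjusted p = 0.0137) and Il6 (1.78, adjusted p = 0.00266) were the genes called. Over all genes, edgeR called 0.176% and 0.29% from ctrl to 0p5h, DESeq2 0.32% and 0.403%, and edgeR with the block 0.581% and 0.643%. From 0p5h to 24h the shares were 0.639% and 0.66%, 0.994% and 1.45%, and 1.78% and 2.88% in the same order. From ctrl to 24h they were 0.0152% and 0% by edgeR, 0.198% and 0.333% by DESeq2, and 0.926% with the block in WT.

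For the genotype difference in the change from ctrl to 24h, the block gave 1 call with edgeR, 1 with DESeq2 and 1 with no fold minimum, Il6 in edgeR (1.97, adjusted p = 0.0208) and in DESeq2 (adjusted p = 3.27e-06). For that from 0p5h to 24h, DESeq2 with the block called 1, Il6. The block changed no other call of a cytokine gene beyond those printed. Between genotypes, DESeq2 called 1 in ctrl, 1 in 0p5h, 1 in 24h and 1 with libraries summed, and in 24h edgeR called 1 with no filter and 1 with all 30 libraries in one fit, against 0. Of all genes, DESeq2 called 1.02%, 0.588%, 4.74% and 1.74% in these comparisons. In 24h edgeR with no filter called 246 higher and 130 lower of 25806 genes, and the joint fit 379 and 236 of 13755. No paired analysis was possible between genotypes because they share no culture number. The lane covariate and the joint fit were not run for summed libraries.

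With 1 culture left out, the count was 0 to 1 in WT and 1 to 2 in Cacnb3-/- BMDCs from ctrl to 0p5h, 1 to 2 and 1 to 3 from 0p5h to 24h, 0 to 0 and 0 to 1 from ctrl to 24h, and between genotypes 0 to 1 in ctrl, 0 to 0 in 0p5h, 0 to 1 in 24h and 0 to 1 with libraries summed. The changes of sign were Il6 between genotypes in 24h with a GC trend removed (-0.15) and Il6 from 0p5h to 24h in Cacnb3-/- BMDCs with 1 culture left out (-0.56 to 0.01, the highest without culture p974s852).

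Over all genes, calls moved by more than 1.5 times. In WT, edgeR called 23 from ctrl to 0p5h, 2 from ctrl to 24h and 82 from 0p5h to 24h, against up to 76, 128 and 233 under an alternative with the block and as few as 3, 0 and 39 with 1 culture left out. In Cacnb3-/- BMDCs it called 37, 0 and 84, against up to 82, 150 and 367 with the block and 16, 0 and 20 at the fewest with 1 culture left out. Between genotypes it called 0 in ctrl, 0p5h, 24h and with libraries summed, against up to 249, 83, 1129 and 380 under an alternative, and the genotype difference in change reached 0, 50 and 41 genes from ctrl to 0p5h, ctrl to 24h and 0p5h to 24h. Values of Il12a, Il23a and Il27 rest on at most 21, 66 and 16 reads per library.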
